A study of Arabidopsis thaliana with 4 samples.

Results

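Phytochrome interacting factors (PIFs) and the transcription factors that act around them in shade avoidance were measured as a set of 10 genes. The set was fixed by locus identifier, and all 10 were found among the 37686 genes of the deposited table. It holds PIF1, PIF3, PIF4 and PIF5, the helix-loop-helix (HLH) factors PIL1, HFR1 and PAR1, and the homeodomain-leucine zipper class II (HD-ZIP II) factors ATHB2, HAT1 and HAT2. The samples were the wounded region of leaves of Arabidopsis thaliana (wild type, ecotype Col-0), cut with part of the petiole from seedlings aged 12 days. Seedlings had grown at 22 °C in days of 16 h light and 8 h dark, on 1/2 MS medium with sucrose. One group of 2 libraries was taken before culture (time 0), and the other group of 2 libraries after 2 days on B5 medium with sucrose in the dark. The sample is a mixed tissue in which the regenerating cells are only a part, and in such a sample fewer cells of a type and less RNA per cell cannot be told apart. Time since detachment, darkness, medium and age changed together between the groups, and the labels name no hour of sampling, so that these cannot be told apart either.

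PIFs are basic helix-loop-helix (bHLH) proteins that bind E-box elements in promoters, chiefly the G-box, and drive elongation in darkness and in shade. Light-activated phytochromes bind PIF proteins and trigger their breakdown, so that a PIF protein can accumulate in the dark without a change in its transcript. In canopy shade PIFs raise the transcripts of HD-ZIP II genes and of HFR1, PIL1 and PAR1. HFR1 and PAR1 are HLH proteins that pair with PIFs and hold them off DNA, which limits the response. In detached or shaded leaves PIF4 and PIF5 are also known as promoters of senescence in the dark.

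The upstream sequences of 2 genes are shown because they hold the densest runs of PIF-type elements among the 10 and because these 2 genes moved in opposite directions. The search covered the 2000 bases before each annotated gene start in the TAIR10.1 assembly, on both strands, for the G-box (CACGTG, the same on both strands) and the PBE-box (CACATG, or CATGTG when read on the other strand). Matches of these motifs do not overlap each other in the stretches below, where capitals mark every match.
PIL1, chr2:19298806-19299105, minus strand: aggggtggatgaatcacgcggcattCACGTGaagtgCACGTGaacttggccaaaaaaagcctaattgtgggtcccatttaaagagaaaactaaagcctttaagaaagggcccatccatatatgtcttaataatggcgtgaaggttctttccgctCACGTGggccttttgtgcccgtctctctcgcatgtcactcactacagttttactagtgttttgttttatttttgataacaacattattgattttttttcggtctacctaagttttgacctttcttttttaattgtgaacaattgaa
PAR1, chr2:17838281-17838580, minus strand: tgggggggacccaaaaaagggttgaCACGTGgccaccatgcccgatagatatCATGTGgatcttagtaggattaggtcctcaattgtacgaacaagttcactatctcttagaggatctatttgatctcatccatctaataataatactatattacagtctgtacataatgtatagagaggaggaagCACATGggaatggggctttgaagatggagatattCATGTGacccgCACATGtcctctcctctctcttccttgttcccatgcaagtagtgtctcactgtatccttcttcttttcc
The PIL1 stretch begins 1247 bases before the gene start and lies between annotated genes. It holds 3 G-boxes. The PAR1 stretch begins 962 bases before the gene start and holds 1 G-box and 4 PBE-boxes. It falls inside AT2G09405, an annotated long non-coding RNA on the same strand, which was listed at 0 TPM in all 4 libraries. At least 3 such matches within 250 bases occurred in 3.65% of 27429 upstream regions of this length, and at least 5 in 0.0802%.

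The G-boxes of the other genes, and the HD-ZIP II motif of ATHB2, which held no G-box, are shown with 25 bases on each side. The label HD-ZIP II motif stands here for CAATNATTG with any middle base, a pattern not limited to the form that HD-ZIP II proteins prefer. PBE-boxes in PIF3, PIF4, HFR1, HAT1 and HAT2 and HD-ZIP II motifs in HAT1 and HAT2 were also found and are not printed. They are given 5′ to 3′ on the strand of the gene, with the motif in capitals.
PIF5, G-box 165 bases before the gene start, chr3:21830972-21831027, minus strand: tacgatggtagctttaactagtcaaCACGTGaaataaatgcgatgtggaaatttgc
HFR1, G-box 1419 bases before the gene start, chr1:469269-469324, minus strand: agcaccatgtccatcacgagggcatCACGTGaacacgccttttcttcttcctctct
HFR1, G-box 1000 bases before the gene start, chr1:468850-468905, minus strand: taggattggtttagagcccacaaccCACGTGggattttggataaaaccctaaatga
HAT1, G-box 1302 bases before the gene start, chr4:9738191-9738246, plus strand: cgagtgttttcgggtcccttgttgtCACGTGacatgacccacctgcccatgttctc
HAT2, G-box 1459 bases before the gene start, chr5:19219436-19219491, minus strand: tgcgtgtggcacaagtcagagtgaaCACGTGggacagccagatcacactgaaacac
ATHB2, HD-ZIP II motif 477 bases before the gene start, chr4:9448612-9448670, plus strand: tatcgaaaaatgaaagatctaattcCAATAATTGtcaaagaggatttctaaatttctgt
A G-box was found upstream of 6 of the 10 genes, against 23.8% of all regions of this length, and a PBE-box upstream of 6 (PIF3, PIF4, HFR1, HAT1, HAT2 and PAR1), against 61% of regions. Among the 6 with a G-box are genes that were higher at 2 days (PIF5, PIL1, HFR1) and genes that were lower (HAT1, HAT2, PAR1). PIF1 held neither element, and PIF3, PIF4 and ATHB2 held no G-box. In the nearer 1000 bases alone 3 of the 10 genes held a G-box, against 14.8% of regions. The pattern CAATNATTG, searched on both strands, was found upstream of ATHB2, HAT1 and HAT2 and of none of the other 7 genes. It occurred in 6.35% of all 2000-base regions. On the strand of the gene the middle base was A in ATHB2, G in HAT1 and T in HAT2. The forms with different middle bases were not counted apart, so the matches do not show which class of HD-ZIP protein would bind. These matches describe letters only, and some of the longer windows reach into a neighbouring gene. The G-box of HAT2, at 1459 bases, lies beyond the nearest annotated gene boundary, which is 1383 bases upstream of HAT2.

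**Figure D1:**
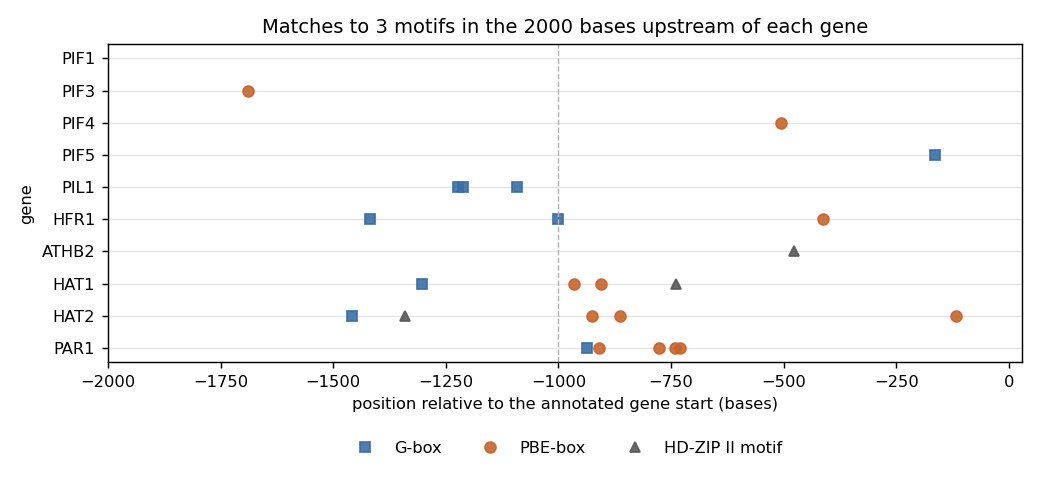
Positions of G-box (squares), PBE-box (circles) and CAATNATTG (triangles, labelled HD-ZIP II motif) matches in the 2000 bases upstream of each of the 10 genes. Positions are in bases from the annotated gene start, with a dashed line at 1000 bases. PAR1 holds 5 G-box or PBE-box matches close together, PIL1 holds 3 G-boxes, and PIF1 holds no match.

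Transcript levels are given in TPM (transcripts per 1000000, a level adjusted for transcript length and scaled to the same total in each library), which allows levels of different genes to be set side by side. The depth behind the values is unknown. Differences are on the scale of log2(TPM + 1), 2 days minus time 0, and were tested with limma over the 19078 genes averaging 1 TPM or more, which included all 10. Of the 10 genes, 5 were higher and 4 lower at 2 days at an adjusted p below 0.05, and ATHB2 did not pass. Among all tested genes 39.2% were higher and 29.5% lower, so a change by itself was common in these samples. These were 7485 higher and 5636 lower genes, and with quantile normalization the split was 6385 higher and 7187 lower. The ranges of the 2 groups did not overlap in 10 of 10 genes, against 86% of tested genes. The median size of the log2 difference, regardless of sign, was 1.54 over the 10 genes and 0.51 over all tested genes.

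**Figure D2:**
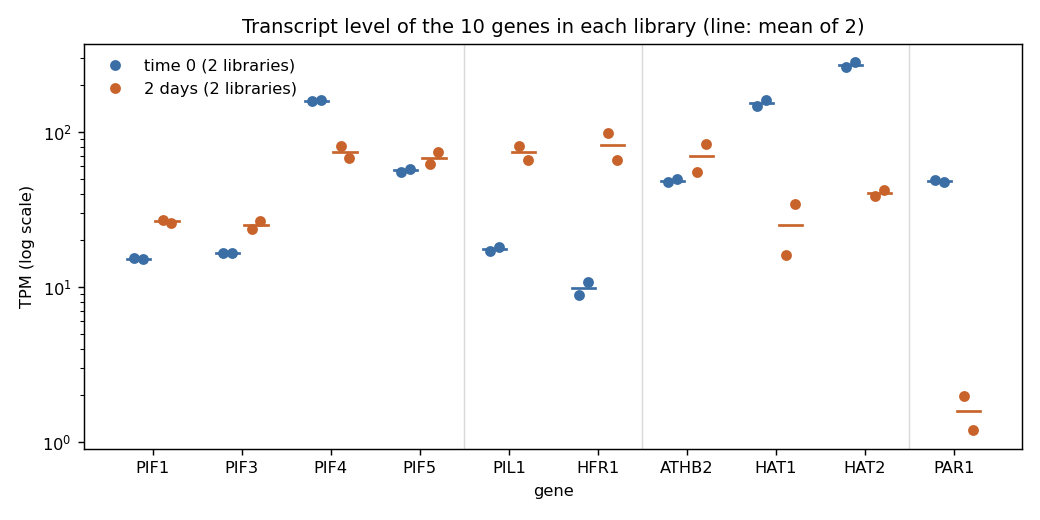
TPM of each of the 10 genes in each library on a log axis, time 0 in blue and 2 days in orange, with lines at the group means (n = 2 libraries per group). PAR1, HAT1, HAT2 and PIF4 lie lower at 2 days, and HFR1 and PIL1 higher, with no overlap between the groups.

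Among the PIF genes, PIF4 fell while PIF1 and PIF3 rose. PIF4 (AT2G43010), which drives elongation in shade and warmth, had 157.38 and 160.03 TPM before culture and 81.05 and 68.34 TPM at 2 days. Its mean was 2.12-fold lower after culture (log2 difference -1.08 ± 0.090 SE, limma adjusted p = 0.000299). Both cultured libraries were far below both time 0 libraries.

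PIF1 (AT2G20180), known for repressing seed germination and chlorophyll synthesis in the dark, read 15.32 and 15.07 TPM at time 0 against 27.06 and 26.07 TPM at 2 days. The log2 difference was 0.77 ± 0.063 SE (limma adjusted p = 0.000284). PIF3 (AT1G09530), the founding member of the family and a repressor of greening in dark-grown seedlings, had 16.57 and 16.48 TPM before culture and 23.77 and 26.84 TPM after it. This was a log2 difference of 0.58 ± 0.080 SE (limma adjusted p = 0.00187). The 2 genes thus started at similar levels and both ended higher in each cultured library.

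PIF5 (AT3G59060), the closest relative of PIF4, changed least. It had 55.55 and 57.36 TPM at time 0 and 62.56 and 73.79 TPM at 2 days. The groups lie close to each other without overlapping. Its log2 difference of 0.26 ± 0.090 SE passed narrowly (limma adjusted p = 0.0473), and it was called in 5 of 12 alternative settings, with adjusted p from 0.0106 to 0.21. The call was lost without time 0 replicate 1 (limma adjusted p = 0.202), without time 0 replicate 2 (0.145) and without 2-day replicate 2 (0.0665).

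The make-up of the PIF transcripts shifted more than their sum. Summed over PIF1, PIF3, PIF4 and PIF5, the level was 244.82 and 248.94 TPM at time 0 and 194.44 and 195.04 TPM at 2 days. PIF4 supplied 64.3% of that sum in both time 0 libraries, and 41.7% and 35.0% in the cultured ones. PIF5 supplied 22.7% and 23.0% before culture and 32.2% and 37.8% after it. The shares of PIF1 went from 6.26% and 6.05% to 13.9% and 13.4%. Before culture the ratio of PIF4 to PIF5 was 2.83 and 2.79, and at 2 days it was 1.296 and 0.926, so that PIF4 was the more abundant of the pair in only 1 of the 2 cultured libraries.

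**Figure D3:**
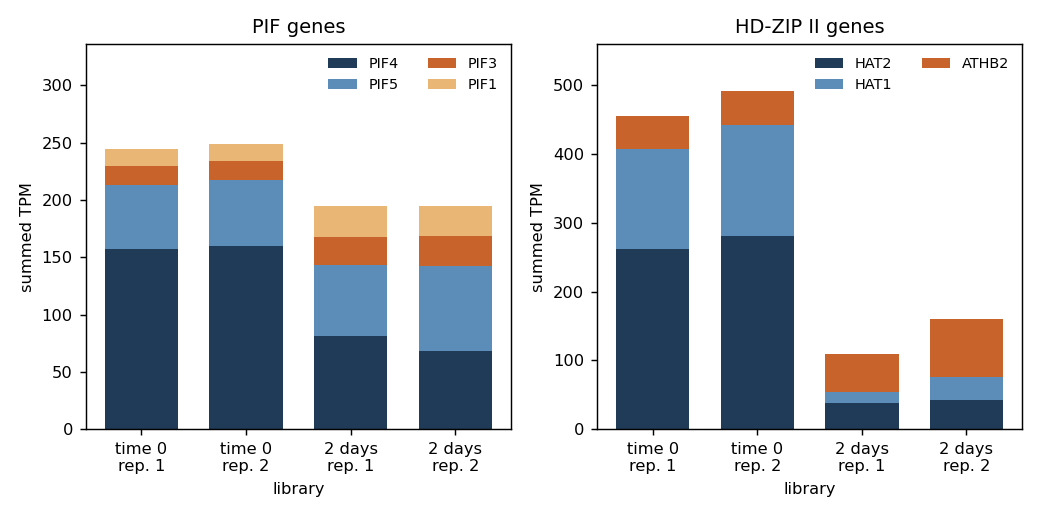
Stacked bars of TPM in each library for the 4 PIF genes (left) and the 3 HD-ZIP II genes (right). PIF4 makes up 64.3% of the PIF sum at time 0, and ATHB2 goes from 10.5% and 10.1% of the HD-ZIP II sum to 50.3% and 52.3%.

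The 3 HLH factors that act beside PIFs split into 2 that rose and 1 that fell. HFR1 (AT1G02340), which forms pairs with PIF4 and PIF5 that cannot bind DNA, had 8.85 and 10.78 TPM at time 0 and 98.63 and 66.38 TPM at 2 days. Its mean was 8.41-fold higher after culture (log2 difference 2.93 ± 0.20 SE, limma adjusted p = 0.000159). HFR1 was the lowest of the 10 genes at time 0 and had the highest mean at 2 days, when its range overlapped that of PIF4, the next in order. The 2 cultured libraries differed by 0.564 on the log2 scale, a wider gap than in all but 4.37% of tested genes.

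PIL1 (AT2G46970), a PIF-related protein whose transcript is a classic rapid marker of shade, rose as well. Its levels were 17.00 and 18.24 TPM before culture and 81.75 and 66.29 TPM after it, 4.20-fold higher on average (log2 difference 2.00 ± 0.11 SE, limma adjusted p = 7.8e-05). Both cultured libraries lie well above both time 0 libraries.

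PAR1 (AT2G42870), a small HLH protein that lacks a DNA-binding basic region and inhibits PIFs and growth, fell to the lowest level of the set. It had 49.13 and 47.82 TPM at time 0 and 1.97 and 1.19 TPM at 2 days, a mean 30.7-fold lower. The log2 difference was -4.28 ± 0.16 SE (limma adjusted p = 2.32e-05), the 50th largest fall of the 19078 tested genes. With a pseudocount of 5 TPM in place of 1 it was -3.03, because the cultured values are low.

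The 2 inhibitors therefore exchanged places. PAR1 exceeded HFR1 5.55-fold and 4.44-fold in the time 0 libraries, whereas HFR1 exceeded PAR1 50.1-fold and 55.8-fold in the cultured ones. Set against PIF4, HFR1 was at a ratio of 0.0562 and 0.0674 at time 0 and of 1.22 and 0.971 at 2 days. For PIL1 the same ratio went from 0.108 and 0.114 to 1.01 and 0.970. Summed, PIL1 and HFR1 had 0.106 and 0.117 times the level of the 4 PIF genes before culture and 0.928 and 0.680 times that level after it. These are transcript ratios, and protein was not measured.

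The HD-ZIP II genes, shade-responsive transcription factors that act as repressors, also divided. HAT2 (AT5G47370) was the most abundant of the 10 genes at time 0, with 261.42 and 281.19 TPM, and had 38.38 and 42.03 TPM at 2 days. Its mean was 6.75-fold lower (log2 difference -2.72 ± 0.070 SE, limma adjusted p = 1.13e-05), and the libraries within each group lay close together.

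HAT1 (AT4G17460), which is also known to act in brassinosteroid responses, had 146.05 and 160.45 TPM at time 0 and 16.07 and 34.52 TPM at 2 days. The log2 difference was -2.65 ± 0.34 SE (limma adjusted p = 0.00143). Its cultured libraries differed by 1.06 on the log2 scale, a gap exceeded by 1.41% of tested genes, and the log2 difference was -2.12 without 2-day replicate 1 and -3.17 without 2-day replicate 2.

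ATHB2 (AT4G16780), the HD-ZIP II gene best known as a shade marker, did not fall with its relatives. It had 47.57 and 49.58 TPM at time 0 and 55.19 and 84.02 TPM at 2 days. The log2 difference was 0.48 ± 0.20 SE, with a 95% interval of -0.02 to 0.98 (limma adjusted p = 0.0781). It was not called here, but it was called without 2-day replicate 1, at a log2 difference of 0.78 (limma adjusted p = 0.00395). Without 2-day replicate 2 the log2 difference was 0.18.

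Together HAT1, HAT2 and ATHB2 had 455.04 and 491.22 TPM at time 0 and 109.64 and 160.57 TPM at 2 days. ATHB2 made up 10.5% and 10.1% of that sum before culture and 50.3% and 52.3% after it. The level of HAT2 was 5.50 and 5.67 times that of ATHB2 in the time 0 libraries and 0.695 and 0.5002 times that level in the cultured ones.

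**Figure D4:**
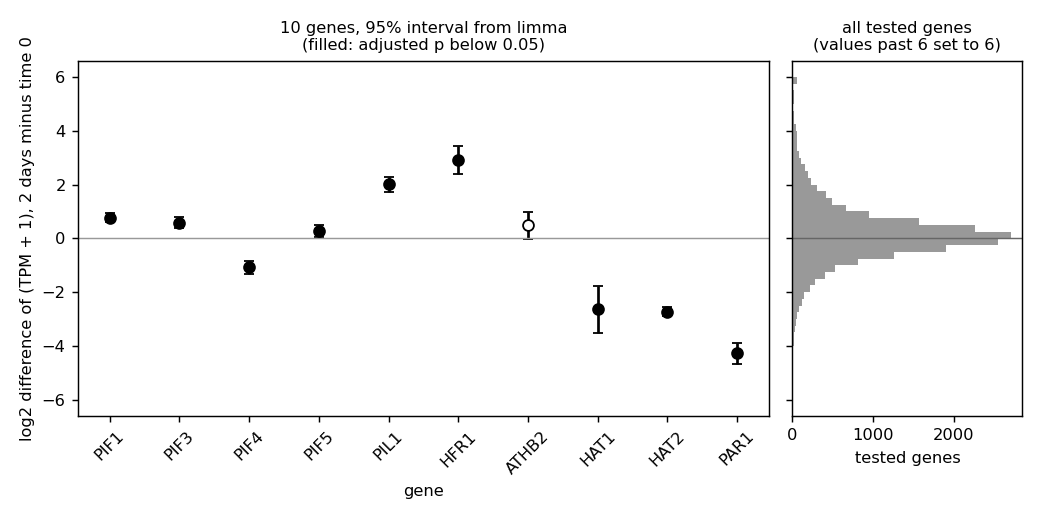
Left, log2 difference of (TPM + 1), 2 days minus time 0, for the 10 genes with 95% limma intervals, filled where the adjusted p is below 0.05. Right, the same difference for all 19078 tested genes as a histogram; PAR1 at -4.28 lies far into its lower tail, and the interval of ATHB2 includes 0.

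The order of levels changed between the groups. From the highest mean down it was HAT2, PIF4, HAT1, PIF5, ATHB2, PAR1, PIL1, PIF3, PIF1 and HFR1 at time 0. Neighbours whose ranges overlapped were PIF4 with HAT1, and ATHB2 with PAR1. At 2 days the order was HFR1, PIF4, PIL1, ATHB2, PIF5, HAT2, PIF1, PIF3, HAT1 and PAR1. Each of the first 5 overlapped the next among them, with means from 68.2 to 82.5 TPM, and PIF1, PIF3 and HAT1 formed another overlapping run at 25.3 to 26.6 TPM. The sum over all 10 genes was 774.84 and 817.0 TPM before culture and 486.43 and 489.47 TPM after it.

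Genes whose pattern over the 4 libraries was most like that of HFR1, by Euclidean distance of centred log2(TPM + 1) values among 19077 other genes, were HRS1 (distance 0.155), AT5G12420 (0.162) and AT1G26420 (0.172). For PAR1 they were AT1G30820 (0.126), AT2G39850 (0.148) and AT1G22890 (0.155). With 4 libraries in 2 groups, such likeness reflects mainly an equal difference between the groups.

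The counts in the pathway lists that follow stand beside the 39.2% of all tested genes that were higher and the 29.5% that were lower, and they describe only the listed genes that averaged 1 TPM or more. Of the 79 listed genes tested, 11 averaged below 1 TPM in one group and passed that filter through the other (4 through the 2-day libraries and 7 through time 0).

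Of the 7 HD-ZIP II relatives outside the set, all of them tested, 4 were lower, 2 higher and 1 was not called, with a median log2 difference of -1.81 against 0.09 over all tested genes. All 4 lower genes (HAT3, ATHB4, ATHB17 and ATHB18) averaged below 1 TPM at 2 days and passed the filter through time 0. HAT3, which acts with ATHB4 in leaf polarity and in shade, had 49.46 and 51.82 TPM at time 0 and 1.03 and 0.58 TPM at 2 days (log2 difference -4.85, limma adjusted p = 1.32e-05). ATHB17 went from 6.76 and 7.82 TPM to 0.97 and 0.80 TPM, and ATHB18 from 5.05 and 4.81 TPM to 0.92 and 0.43 TPM. HAT22 moved the other way, from 12.09 and 12.59 TPM to 23.82 and 33.11 TPM (log2 difference 1.13). The count of 2 higher genes became 1 in each of the 4 fits that left out a library (without time 0 replicate 1 or 2, and without 2-day replicate 1 or 2). Of the 10 HD-ZIP II genes in both sets, 6 were lower and 2 higher.

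Among other HLH and bHLH factors of cell elongation, 10 of 14 listed genes were tested, of which 8 were lower and 2 higher (median log2 difference -1.55). Of the 8 lower genes 1 averaged below 1 TPM at 2 days and passed the filter through time 0. KDR, an atypical HLH protein that binds HFR1 and counters it, had 514.23 and 507.21 TPM at time 0 and 78.14 and 36.62 TPM at 2 days (log2 difference -3.23, limma adjusted p = 0.000697). BNQ2, a growth-promoting HLH protein of the same family, went from 84.81 and 83.90 TPM to 12.34 and 8.58 TPM. PAR2, the nearest relative of PAR1, fell from 58.57 and 54.93 TPM to 11.94 and 8.88 TPM. IBH1, which inhibits elongation and is countered by such HLH proteins, rose from 13.32 and 13.53 TPM to 105.87 and 89.26 TPM (log2 difference 2.77, limma adjusted p = 1.9e-05).

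Genes known to be raised by PIFs in shade were lower in 8 and higher in 3 of 12 tested genes, of 15 listed (median log2 difference -1.40). IAA29, an auxin-response repressor, had 310.14 and 339.93 TPM at time 0 and 17.95 and 5.31 TPM at 2 days (limma adjusted p = 0.000635). GA20OX1 and GA20OX2, enzymes of gibberellin synthesis, fell with log2 differences of -3.41 and -3.10. GA20OX1 went from 36.95 and 42.70 TPM to 2.50 and 3.17 TPM, and GA20OX2 from 12.25 and 14.98 TPM to 1.06 and 0.40 TPM. Of the 8 lower genes 2, GA20OX2 among them, averaged below 1 TPM at 2 days and passed the filter through time 0. XTH33, a cell wall enzyme, rose from 16.29 and 15.58 TPM to 41.61 and 41.53 TPM (log2 difference 1.33).

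Of 5 tested PIF relatives outside the set, 2 were higher (40%, near the 39.2% of all tested genes), 0 lower and 3 not called. The median log2 difference, 0.19, is the value of PIF6, whose level is uncertain because another gene lies opposite 79.2% of its 50-base windows. At an unadjusted limma p below 0.05, 1 of the 5 was lower, UNE10, with 39.14 and 36.61 TPM at time 0 and 18.58 and 31.21 TPM at 2 days, named here after its values were seen. SPT, a growth repressor, went from 3.42 and 3.60 TPM to 6.39 and 4.65 TPM (limma adjusted p = 0.0317). ALC, a factor of fruit opening, had 1.97 and 0.94 TPM at time 0 and 4.78 and 4.06 TPM at 2 days, but another gene lies opposite 61.5% of its windows, so its level is uncertain. The count of 2 higher became 1 without time 0 replicate 1 or without time 0 replicate 2 and 0 without 2-day replicate 1. The count of 0 lower became 2 without 2-day replicate 1 and 1 without 2-day replicate 2.

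Of 24 tested regulators of PIF protein, of 25 listed, 9 were higher (37.5%), 7 lower (29.2%) and 8 not called (median log2 difference 0.08). These shares are near the 39.2% and 29.5% of all tested genes. Of the 9 higher genes 1 averaged below 1 TPM at time 0 and passed the filter through the 2-day libraries. HY5, a bZIP factor that competes with PIFs at G-boxes, rose from 1.89 and 1.44 TPM to 15.52 and 23.60 TPM (log2 difference 2.92, limma adjusted p = 0.00019). SPA1, a partner of the ubiquitin ligase COP1, rose from 3.37 and 3.28 TPM to 9.34 and 17.70 TPM. Of the genes for DELLA proteins, which bind and block PIFs, RGL2 rose (1.64 on the log2 scale) and RGL3 fell (-1.95). Of the other DELLA genes RGL1 was called higher (0.55), and GAI and RGA were called lower (-1.21 and -0.22). GAI was the most abundant of them, with 119.07 and 119.08 TPM at time 0 and 55.04 and 47.18 TPM at 2 days. The count of 7 lower became 3 without time 0 replicate 1 and 3 without time 0 replicate 2.

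The clock genes that control PIF4 and PIF5 transcription were lower in 6 and higher in 3 of 9 (66.7% and 33.3%, against 29.5% and 39.2% of all tested genes), with a median log2 difference of -1.10. The 3 higher genes, LHY, CCA1 and PRR9, averaged below 1 TPM at time 0 and passed the filter only through the 2-day libraries. There they had 2.12 to 5.45 TPM. For PRR9 28.7% of the 50-base windows also occur in another gene, so its level is uncertain. TOC1, an evening component of the clock, had 110.30 and 111.81 TPM at time 0 and 25.02 and 24.93 TPM at 2 days (log2 difference -2.11, limma adjusted p = 1.09e-05). ELF4 and ELF3, subunits of the evening complex that represses PIF4 and PIF5, fell with log2 differences of -2.005 and -1.35. LHY, a morning component, went from 0.09 and 0.11 TPM to 5.45 and 5.36 TPM. In the libraries where ELF3 and ELF4 were lower, PIF4 was lower (-1.08 on the log2 scale) and PIF5 narrowly higher (0.26). A link between these levels was not tested. The part of the hour of sampling in the levels of the 10 genes was not tested either.

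In chloroplast genes known to be held down by PIFs in the dark, 3 of 6 were higher and 3 lower (median log2 difference 0.14). GLK1 and GLK2, activators of photosynthesis genes, rose. GLK1 went from 44.28 and 42.60 TPM to 182.58 and 181.27 TPM, and GLK2 from 16.78 and 16.04 TPM to 54.29 and 68.45 TPM. GUN4, which takes part in chlorophyll synthesis, was also called higher (0.65 on the log2 scale), but another gene lies opposite 71.9% of its windows, so its level is uncertain. PSY, the entry enzyme of carotenoid synthesis, fell by 0.39 on the log2 scale. The count of 3 lower became 1 without time 0 replicate 1 and 1 without time 0 replicate 2.

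Among targets of PIF4 and PIF5 in dark-induced leaf senescence, 1 of 6 was higher, 3 lower and 2 not called (median log2 difference -0.09). ORE1, a NAC factor that promotes leaf ageing, rose from 1.83 and 1.49 TPM to 14.37 and 9.11 TPM (log2 difference 2.23, limma adjusted p = 0.000541). EEL, a bZIP factor, fell from 15.04 and 14.23 TPM to 6.09 and 4.28 TPM. NYC1, an enzyme of chlorophyll breakdown, and EIN3, a factor of ethylene signalling, fell with log2 differences of -0.89 and -0.43.

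**Figure D5:**
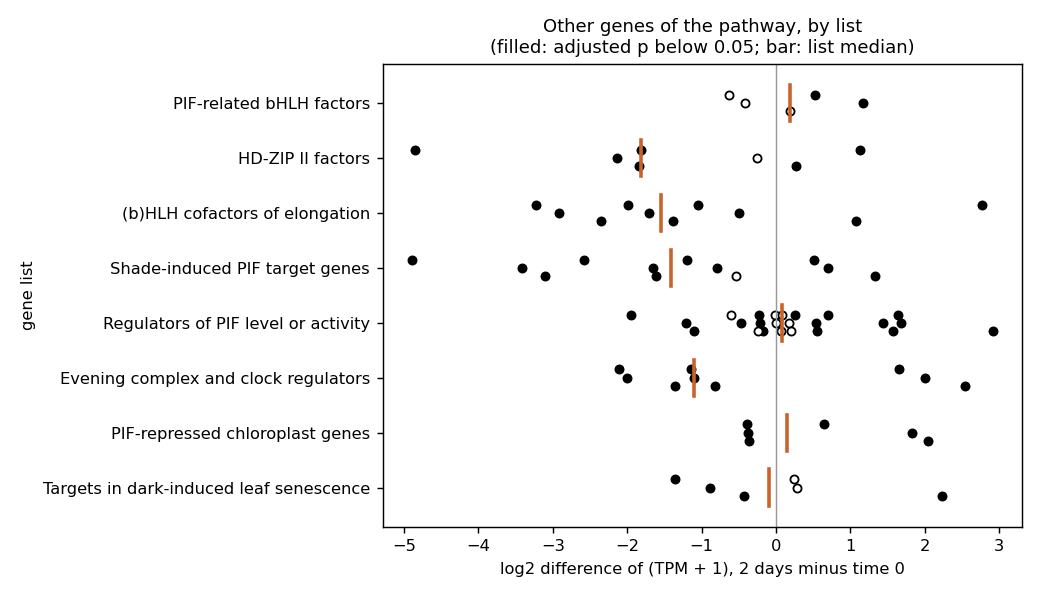
Log2 difference of (TPM + 1), 2 days minus time 0, for the tested genes of 8 pathway lists outside the 10 genes, filled where the adjusted p is below 0.05, with orange bars at list medians. The HD-ZIP II, elongation cofactor, shade target and clock lists have medians of -1.81, -1.55, -1.40 and -1.10. The medians of the other lists run from -0.09 to 0.19, and the median over all tested genes is 0.09.

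Markers of leaf tissue were present in all libraries, and 13 of 20 were called, 11 lower and 2 higher. Beside these counts and those for each cell type stand the 29.5% of all tested genes that were lower and the 39.2% that were higher. Summed over 4 mesophyll markers, the level was 48389 and 46229 TPM at time 0 and 10494 and 8397 TPM at 2 days, with 4 of 4 lower. The epidermal sum went from 629.06 and 610.31 TPM to 358.17 and 308.89 TPM (2 of 4 lower), and the guard cell sum from 47.13 and 52.38 TPM to 26.51 and 23.68 TPM (3 of 4 lower). Sums for phloem lay between 351 and 376 TPM in all 4 libraries and overlapped between the groups. Those for xylem and procambium were 128.49 and 130.7 TPM at time 0 and 108.85 and 113.44 TPM at 2 days, without overlap. In each of these lists 1 of 4 markers was higher and 1 lower. For xylem and procambium, WOX4 rose from 3.02 and 3.26 TPM to 18.72 and 20.77 TPM. XCP1 fell from 77.71 and 79.87 TPM to 42.11 and 44.70 TPM. Shoot meristem markers stayed below 1 TPM (WUS and CLV3 at 0), and of root meristem markers PLT1 and PLT2 were at 0 while WOX5 reached 1.54 and 3.26 TPM at 2 days, in a sum of 1.95 and 3.50 TPM. The part of cell composition in the changes of the 10 genes was not tested.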

How the data were processed

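The authors deposited 1 table of TPM, given to 2 decimals. Per the submitters' processing notes, RSEM 1.3.2, STAR 2.7.2b and Trim Galore 0.5.0 were used with genome build TAIR10. No annotation release or strand setting is stated in the sources used here. TPM keeps no depth, so the depth is unknown and no counting interval or count-based test was used. Columns were matched to libraries by name and title.

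Values of genes averaging 1 TPM or more were fitted as log2(TPM + 1) in R 4.3.3 by limma 3.58.1, using a mean-variance trend and Benjamini-Hochberg adjustment over all 19078 tested genes (threshold 0.05, 2 residual degrees of freedom). The log2(TPM + 1) scale understates changes of low genes. The labels do not say whether libraries of a group came from separate plants, so p-values cover no more than the spread between these libraries, possibly a technical one. With 2 libraries against 2, an exact permutation test cannot go below p = 0.333.

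The 10 genes and the 8 pathway lists (87 genes) were chosen with earlier results of these data known. From each list the text names the 3 called genes that changed most in the commoner direction and 1 in the other, and where both directions were equally common the higher genes count as the commoner. Named beyond this rule are PIF6, UNE10, the other DELLA genes, and some genes that passed the filter through 1 group. Symbols, gene starts and upstream sequences came from the RefSeq annotation of TAIR10.1, whose coordinates are given for sequences alone, since the table holds none. Of the list symbols, 3 were replaced by the reference's symbol. In transcripts of the 10 genes 0% of 50-base windows occurred in another gene, and 1.67% of those of PIF1 overlapped a gene on the opposite strand. Python 3.11.15 and matplotlib 3.10.9 were used for tables and figures.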

Additional observations from a re-analysis of the deposited data

How the results depend on the processing

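PIF1, PIF3, PIF4, PIL1, HFR1, HAT1, HAT2 and PAR1 kept their direction and call in all 12 alternatives (pseudocounts of 0.1 and 5 TPM, no filter, a filter of 5 TPM, quantile normalization, rescaling that leaves out organelle genes and the 100 highest genes, no mean-variance trend, the replicate block, and each library left out). PIF5 kept its direction but lost its call with no filter (0.26, limma adjusted p = 0.0828), quantile normalization (0.18), rescaling (0.14) and no trend (0.26). With each library left out, where the lone library of a group is assumed to vary like the other group, PIF5 ranged from 0.15 to 0.38 and ATHB2 from 0.18 to 0.78. The median over tested genes, 0.09, became -0.06 with quantile normalization and -0.02 with rescaling, and the share of calls that were higher went from 57% to 47% and 49.2%.

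Replicate numbers pair no samples in the labels, and the correlation of the replicate 1 minus replicate 2 differences between the groups was -0.0674. With the replicate block 7101 genes were higher and 5283 lower, and ATHB2 was called (0.48, limma adjusted p = 0.0271).

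The log2 ratio of the PIF sum moved from -0.34 to -0.47 with rescaling. Among list counts, the PIF relatives called higher went from 2 to 1 with no filter, quantile normalization or rescaling and to 0 from a mean of 5 TPM, and over libraries left out from 0 to 2. Those called lower went from 0 to 1 from a mean of 5 TPM or with rescaling and to 2 with the block, and over libraries left out from 0 to 2. The other HD-ZIP II genes called higher went from 2 to 1 with quantile normalization, rescaling, the block and each library left out, and those called lower from 4 to 1 from a mean of 5 TPM, where fewer were tested. Clock genes called higher went from 3 to 0 from a mean of 5 TPM, since their means over all 4 libraries are below it. Senescence targets called higher went from 1 to 2 with no trend. Over libraries left out the PIF protein regulators called lower ranged from 3 to 9 and the chloroplast genes called lower from 1 to 3. Causes other than fewer tested genes were not tested. The median replicate gap was 0.0706 (log2) at time 0 and 0.118 at 2 days. The unknown depth limits the precision of low values, such as those of PAR1 at 2 days.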
